A study of Homo sapiens with 4 samples.

Results

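The AFF family and the super elongation complex were followed in Daoy cells, an established human medulloblastoma line, as 10 genes among the 23228 gene rows of the deposited count files. They are the 4 AFF scaffold genes (AFF1, AFF2, AFF3 and AFF4), the ELL elongation factor genes ELL and ELL2, the YEATS reader genes MLLT1 and MLLT3, and CDK9 and CCNT1, the kinase and the cyclin of P-TEFb. The set was chosen by the level of AFF2, which in these same libraries was much higher with the PELP1 shRNA than with the control shRNA; the other 9 genes were taken by name as its paralogs and elongation partners. The AFF2 values below are therefore a description with no test. All 10 genes were among the 14972 that passed the low-count filter.

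Cells had been transduced with lentivirus and stably expressed either a control shRNA, in 2 libraries, or one directed at PELP1, a nuclear receptor coregulator, in 2 more. Both groups were grown in the same serum-containing medium, and no clone, time after transduction or shRNA sequence is given in the sources used here. The labels do not say that the duplicates came from separate cultures, so each p-value refers to the spread of these libraries alone, and that spread may be technical.

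Release of RNA polymerase II from its pause near a promoter requires the kinase P-TEFb, which phosphorylates the polymerase and the pausing factors NELF and DSIF. Much of the cell's P-TEFb is held inactive in the 7SK ribonucleoprotein with HEXIM proteins. The super elongation complex delivers active P-TEFb: AFF4 or AFF1 is the flexible scaffold, to which P-TEFb, ELL or ELL2, and MLLT1 (ENL) or MLLT3 (AF9) bind. Several of these genes were found as fusion partners of MLL in leukaemia. AFF2 (FMR2) is the gene silenced at the FRAXE fragile site in a form of X-linked intellectual disability, and AFF3 (LAF4) is best known from lymphoid and neural tissue.

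Depth was 24052542 to 29221640 counts in genes per library. PELP1, the targeted gene, had 168.2 and 185.2 CPM (read counts scaled by TMM to a common library size) with the control shRNA and 55.6 and 49.7 CPM with the PELP1 shRNA, which is −1.75 ± 0.05 on the log2 scale (SE; edgeR, FDR = 1.54e-33). Of 14972 genes tested, 58.1% passed the false discovery rate (FDR) threshold of 0.05, 28.6% higher and 29.5% lower with the PELP1 shRNA, so a call by itself does not set a gene apart here. In 77.7% of tested genes the 2 groups did not overlap. Among markers of the cerebellar granule and neuronal lineages, ZIC1, ZIC2, PAX6, OTX2 and TUBB3 were present, while ATOH1 had 0 to 3 counts per library, NEUROD1 0 to 6 and BARHL1 and NEUROD2 0 to 2. The summed level of all 14 markers was 226.1 to 244 CPM with the control shRNA and 172.5 CPM in both PELP1 shRNA libraries. That sum follows TUBB3, which fell by 0.99 (edgeR, FDR = 1.35e-25); without it the sum was 79.7 to 80.8 CPM, then 94.2 to 94.3 CPM. Of the 10 markers tested, 4 rose (SYP, PAX6, OTX2 and ZIC2), 3 fell (TUBB3, EOMES and SOX2) and the other 3 missed the threshold. Their median log2 fold change was 0.30. EOMES was marginal, with 27 and 23 counts, then 24 and 9 (edgeR, FDR = 0.0476), and its fall rested mostly on the second PELP1 shRNA library. Of 11 markers of other cell types, ALB had no count, PTPRC 5 to 9 and CD3E and AIF1 0 to 5. Of the 6 that were tested, 5 rose in edgeR and GFAP did not pass (median 1.31). The 5 were PECAM1, from 11 and 7 to 57 and 49 counts, EPCAM from 9 and 3 to 21 and 24, MBP from 54 and 68 to 286 and 152, HBB from 23 and 10 to 36 and 43, and KRT8 from 1944 and 2223 to 5354 and 4537. Summed over all 11, the level was 101.9 to 124.9 CPM with the control shRNA and 185 to 219.2 CPM with the PELP1 shRNA, and most of it was KRT8; without KRT8 it was 15.5 to 41.7 CPM, then 20.4 to 41.7 CPM. The part of these markers in the results was not tested. GFAP had 869 and 840 counts in the first replicate of each group and 304 and 286 in the second.

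The AFF2 locus is long, and the files give 1 count for the whole gene. AFF2 lies on the plus strand of the X chromosome (hg19, 147582137 to 148082193, 500.1 kb), with 7 annotated transcripts that begin at 6 start sites and no exonic base shared with another annotated gene. The promoter table of RefSeq (GRCh38.p14) held windows for 9 of the 10 genes, 12 windows in all, and none for ELL2. Its AFF2 window does not lie at the start of the gene. Matched to the hg19 sequence, it ends at a start site 218.5 kb into the gene, where an annotated transcript begins. The 250 bases before that site are shown in the direction of transcription beside those of AFF4, the most abundant AFF gene, and of MLLT1, whose windows lie at the start of their genes on the minus strand. Capitals mark CpG dinucleotides, the sites of DNA methylation.
AFF2 (GRCh38.p14, chrX:148718841-148719090): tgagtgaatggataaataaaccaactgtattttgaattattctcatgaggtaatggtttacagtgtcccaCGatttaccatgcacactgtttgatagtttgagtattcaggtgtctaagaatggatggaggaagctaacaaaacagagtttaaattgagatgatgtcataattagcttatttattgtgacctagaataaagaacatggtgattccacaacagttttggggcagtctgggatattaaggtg
AFF4 (GRCh38.p14, chr5:132963635-132963884): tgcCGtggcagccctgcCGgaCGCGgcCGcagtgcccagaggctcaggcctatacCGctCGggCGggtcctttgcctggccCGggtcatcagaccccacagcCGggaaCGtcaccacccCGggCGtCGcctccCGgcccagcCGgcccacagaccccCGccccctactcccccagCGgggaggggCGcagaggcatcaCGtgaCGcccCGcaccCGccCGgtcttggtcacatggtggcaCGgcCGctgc
MLLT1 (GRCh38.p14, chr19:6279976-6280225): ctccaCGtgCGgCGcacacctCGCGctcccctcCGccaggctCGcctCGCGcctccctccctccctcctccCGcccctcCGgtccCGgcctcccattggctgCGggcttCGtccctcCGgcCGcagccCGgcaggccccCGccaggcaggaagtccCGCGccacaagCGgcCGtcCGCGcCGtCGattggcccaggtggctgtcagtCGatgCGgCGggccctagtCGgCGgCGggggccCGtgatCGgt

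The AFF2 window holds 1 CpG and is 35.6% G and C. AFF4 holds 26 CpGs at 75.2% and MLLT1 34 at 77.2%. The 7 windows of these genes that lie within 1 kb of a gene's start hold 24 to 37 CpGs and are 59.2% to 82% G and C. Other windows lie farther inside a gene, as that of AFF2 does. Those of AFF3 hold 2 and 4 CpGs at 53.6% and 51.6%. The second CCNT1 window holds 0 at 29.6%, and the second AFF1 window 31 at 71.2%. A low CpG count is thus not particular to the AFF2 window. Over all 35116 windows of the same length the medians were 11 CpGs and 58%, and 14.7% of windows hold no more CpGs than that of AFF2. On both strands, the AFF2 window holds no TATAAA, which 10.7% of all windows hold, no CCAAT (32% of windows), no GGGCGG (42.6%), no CACGTG (6.34%) and no match to the NF-κB motif (9.96%). Of the 12 windows, 5 hold CCAAT, 7 hold GGGCGG, 3 hold CACGTG and 2 (1 of AFF1 and 1 of AFF3) hold the NF-κB motif. Such matches describe the sequence alone, and the counts do not tell from which start site AFF2 reads came.

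AFF2 was nearly silent in the control libraries and was detected well in both PELP1 shRNA libraries. It had 21 and 26 counts with the control shRNA (0.90 and 1.01 CPM) and 344 and 359 with the PELP1 shRNA (11.4 and 13.0 CPM). Both PELP1 shRNA libraries lay far above both control libraries. In bulk RNA, more cells expressing a gene and more RNA per cell cannot be told apart. The ratio of the pooled counts, scaled for depth, was 12.7 (95% counting interval 9.46 to 17.5, which covers counting error only), and with 1 library left out the fitted fold ranged from 11.9 to 13.6. Of the 14972 genes tested, 15 had a larger rise. The set was chosen on this rise, so the ratio, its interval and the rank describe it and do not support it. The level reached stayed low: per kilobase of exon, AFF2 went from 0.0631 and 0.071 to 0.801 and 0.915 RPKM (scaled CPM divided by the exon length in kilobases, computed here), and it was the lowest of the 10 genes in both groups.

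**Figure D1:**
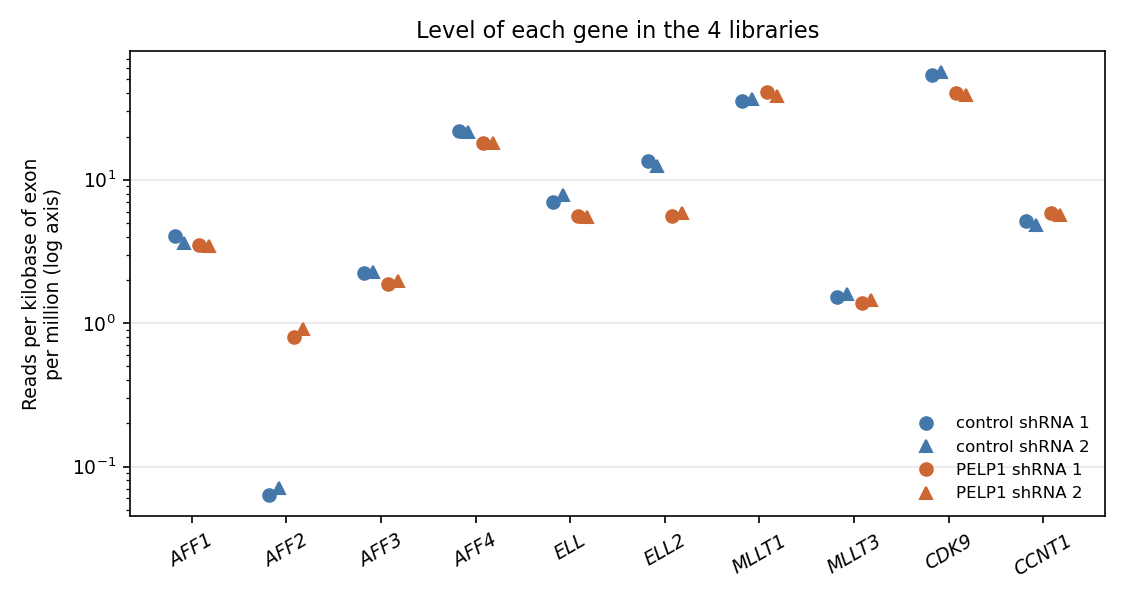
Level of the 10 genes in the 4 libraries, in RPKM (scaled CPM per kilobase of exon) on a log axis; circles are first and triangles second replicates, blue for the control shRNA and orange for the PELP1 shRNA. AFF2 sits at 0.0631 and 0.071 in the control libraries and at 0.801 and 0.915 in the PELP1 shRNA libraries, below every other gene, and ELL2 has the next widest gap between the groups.

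The other 3 AFF genes were slightly lower. AFF4, the main scaffold of the complex, lies on the minus strand of chromosome 5 (132211087 to 132299326). It had 246.9 and 241.1 CPM with the control shRNA and 203.5 and 204.3 with the PELP1 shRNA, and the groups did not overlap. Its log2 fold change was −0.26 ± 0.04 (SE; edgeR, FDR = 3.62e-08). AFF3, on chromosome 2 (100161881 to 100808890, minus strand), fell by 0.22 ± 0.07 (SE; edgeR, FDR = 0.00534), from 35.0 and 35.5 to 29.6 and 31.1 CPM. Of its exonic bases, 858 lie opposite an antisense transcript. AFF1, the scaffold first found as AF4 in leukaemia fusions, lies on chromosome 4 (87856154 to 88062191, plus strand). It had 44.5 and 39.9 CPM against 38.2 and 37.7 CPM, and its group means differed by less than its 2 control libraries did. Its log2 fold change of −0.15 ± 0.06 (SE; edgeR, FDR = 0.0395) lost the call in 11 of 13 alternatives, with adjusted p from 0.0514 to 0.908 in them. The AFF3 call was lost with library size alone (adjusted p = 0.108), with DESeq2 (0.0648) and when PELP1 shRNA replicate 1 was left out (0.0781).

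Set against one another per length, AFF4 held most of the AFF transcript level in every library. Its share was 77.5% and 78.2% with the control shRNA and 74.5% and 74.1% with the PELP1 shRNA. AFF1 held 14.4% and 13.3%, then 14.4% and 14.1%, so the groups overlapped. AFF3 held 7.88% and 8.27%, then 7.79% and 8.10%, and overlapped as well. AFF2 held 0.223% and 0.26% of the summed level with the control shRNA and 3.31% and 3.74% with the PELP1 shRNA. AFF2 thus moved from a trace to a small share. The shares sum to 100%, so a larger share of AFF2 lowers the others. Among AFF1, AFF3 and AFF4 alone, AFF4 held 77.7% and 78.4% with the control shRNA and 77.03% and 76.97% with the PELP1 shRNA. The summed level of the 4 genes was 28.2 and 27.3 RPKM with the control shRNA and 24.2 and 24.4 RPKM with the PELP1 shRNA, 87.5% of control. Without AFF2, the sum of the other 3 was 84.7% of control. With the longest transcript of each gene in place of all exons, the mean share of AFF2 was 0.207% and 3.04%.

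**Figure D2:**
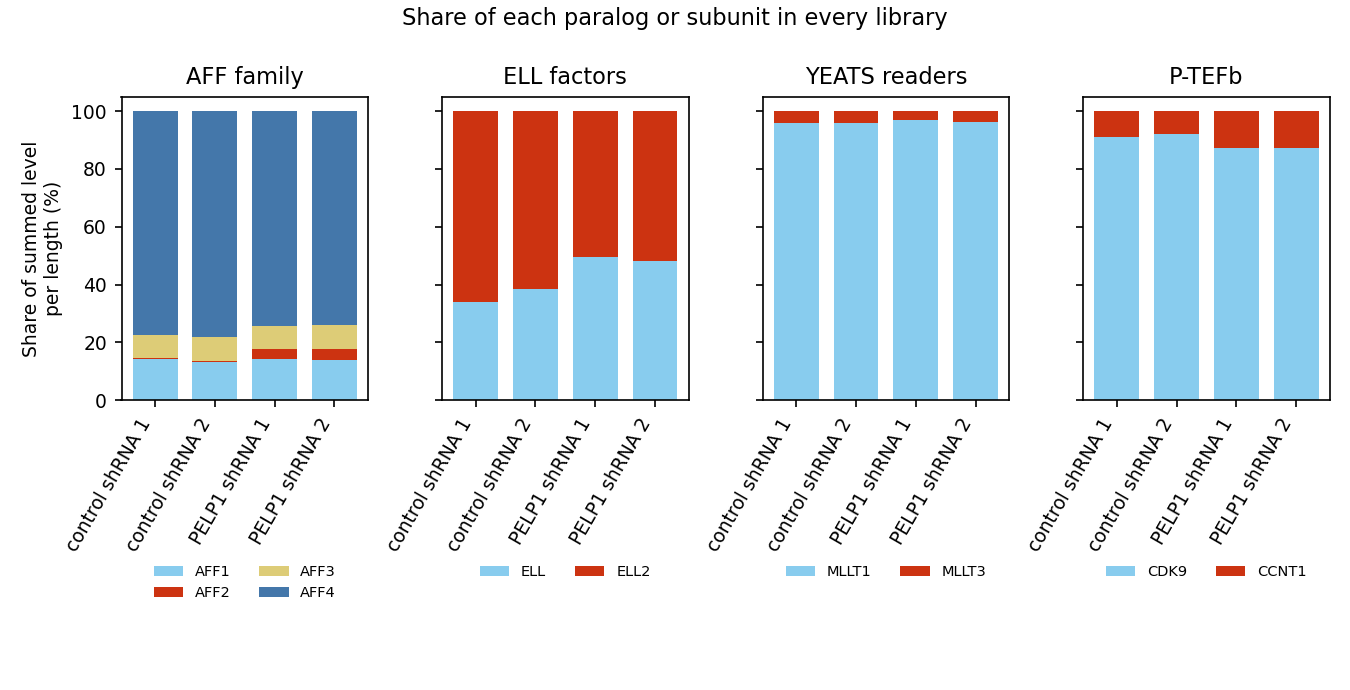
Share of each gene in the summed level per kilobase of exon, in percent, for the AFF genes, the ELL factors, the YEATS readers and the 2 P-TEFb subunits; each bar is 1 library. AFF2 goes from 0.223% and 0.26% to 3.31% and 3.74% of the AFF level, and ELL2 from 66.2% and 61.5% to 50.3% and 51.7% of the ELL level.

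ELL2 had the largest change among the other 9 genes. ELL2, an elongation factor that raises the catalytic rate of RNA polymerase II and is itself a short-lived protein, lies on chromosome 5 (95220802 to 95297555, minus strand). It had 96.6 and 88.9 CPM with the control shRNA and 40.0 and 41.7 with the PELP1 shRNA, which is 44.04% of control. The log2 fold change was −1.18 ± 0.06 (SE; edgeR, FDR = 3.03e-28), from −1.24 to −1.09 over 13 alternatives, and the call held in all of them (highest adjusted p = 0.00153). Of all genes tested, 6.03% had a larger absolute change. ELL, the paralog that gives the family its name (chromosome 19, 18553473 to 18632926, minus strand), fell less, from 34.1 and 38.6 to 27.3 and 26.9 CPM. Its log2 fold change was −0.42 ± 0.07 (SE; edgeR, FDR = 5.38e-07), and 473 of its exonic bases lie opposite an antisense transcript. The ratio of the paralogs within a library does not depend on scaling. Per length, ELL2 stood at 1.96 and 1.60 times ELL with the control shRNA and at 1.01 and 1.07 times with the PELP1 shRNA, so that ELL2 was the more abundant of the pair in the control libraries and about level with ELL in the others.

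The YEATS readers, which bind acylated histone H3 and dock on the AFF scaffold, moved little. MLLT1 (chromosome 19, 6210392 to 6279986, minus strand) had 168.8 and 175.4 CPM with the control shRNA and 194.6 and 182.4 with the PELP1 shRNA. Its log2 fold change of 0.13 ± 0.04 (SE; edgeR, FDR = 0.00503) was no longer called when PELP1 shRNA replicate 1 was left out (0.08, adjusted p = 0.2), and likewise for control replicate 1 (adjusted p = 0.062). MLLT3 (chromosome 9, 20341667 to 20622498, minus strand) had 12.4 and 12.9 CPM against 11.1 and 11.8 CPM and did not pass (−0.15 ± 0.10, SE; edgeR, FDR = 0.212). Per length, MLLT1 stood at 23.2 and 23.0 times MLLT3 in the control libraries and at 29.6 and 26.3 times in the PELP1 shRNA libraries.

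The 2 subunits of P-TEFb went in opposite directions. CDK9, the kinase (chromosome 9, 130547958 to 130553071, plus strand), had 160.6 and 169.6 CPM with the control shRNA and 120.3 and 117.1 with the PELP1 shRNA. Its log2 fold change was −0.48 ± 0.04 (SE; edgeR, FDR = 4.77e-15), and 91 of its exonic bases overlap the microRNA gene MIR3960. CCNT1, cyclin T1 (chromosome 12, 49082241 to 49110781, minus strand), rose by 0.21 ± 0.06 (SE; edgeR, FDR = 0.00392), from 38.3 and 35.5 to 43.2 and 42.02 CPM. The CCNT1 call was lost without control replicate 2 (adjusted p = 0.0884), without PELP1 shRNA replicate 1 (0.0525) and with DESeq2 (0.053). Per length, CDK9 stood at 10.3 and 11.7 times CCNT1 with the control shRNA and at 6.84 times in both PELP1 shRNA libraries.

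Of the 9 genes other than AFF2, 6 fell and 2 rose, while 1 did not pass; their median log2 fold change was −0.22. Over all 14972 genes tested, 29.5% were called lower and 28.6% higher, with a median of 0.0022. All 9 genes had groups that did not overlap, against 77.7% of all tested genes. Their median absolute change was 0.22, against 0.26 over all genes. These genes were chosen with results of the same libraries known, so nothing further is read from the counts. Replicates that share a source can make the spread too small. With an assumed biological variation of 10%, ELL2, CDK9 and ELL were called, and with 20% only ELL2.

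In the control libraries the levels per length ran, from high to low, CDK9 (54.9 RPKM), MLLT1 (36.1), AFF4 (21.6), ELL2 (13.1), ELL (7.39), CCNT1 (5.002), AFF1 (3.85), AFF3 (2.24), MLLT3 (1.57) and AFF2 (0.067), and no neighbours in that order overlapped between libraries. With the PELP1 shRNA, MLLT1 (39.6 RPKM) and CDK9 (39.5) overlapped, as did CCNT1 (5.78) and ELL2 (5.75), and ELL stood at 5.52. AFF4 (18.1), AFF1 (3.47), AFF3 (1.93), MLLT3 (1.42) and AFF2 (0.858) kept their ranks. With the longest transcript as the length, CDK9 stayed first in both groups (66.5 and 47.8), and ELL2 and ELL stayed above CCNT1.

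The 5 tested genes around AFF2 on the X chromosome did not share its difference. Position played no part in choosing the set, and the 5 nearest genes with a row in the files were taken on each side. FMR1, the fragile X gene 549.5 kb before the start of AFF2, had 71.8 and 62.5 CPM with the control shRNA and 51.6 and 57.6 with the PELP1 shRNA (log2 fold change −0.30 ± 0.06, SE; edgeR, FDR = 3.74e-05). FMR1NB, a testis antigen gene 474 kb away, fell by 0.39 ± 0.08 (SE; edgeR, FDR = 5.41e-05), from 23.4 and 22.1 to 16.7 and 18 CPM. On the other side, IDS, the lysosomal iduronate sulfatase gene 476.3 kb beyond the end of AFF2, fell by 0.19 ± 0.04 (SE; edgeR, FDR = 2.68e-05). TMEM185A did not pass (0.13 ± 0.14, SE; edgeR, FDR = 0.434). The cancer-testis antigen gene MAGEA11, 687.7 kb away, rose by 0.20 ± 0.06 (SE; edgeR, FDR = 0.00419), but was not called with DESeq2 (adjusted p = 0.0586), nor when control replicate 2 was left out (0.08, adjusted p = 0.334), nor when PELP1 shRNA replicate 1 was (0.0994). FMR1-AS1 had 0 to 3 counts per library, and MIR510, MIR509-1, MAGEA9B and HSFX2 had none. None of these was tested, so they show neither a change nor its absence. Of 5 tested neighbours, 3 fell and 1 rose, each by less than 0.4 on the log2 scale. With an assumed biological variation of 10%, FMR1 (adjusted p = 0.12), IDS (0.339) and MAGEA11 (0.333) were not called. FMR1NB was called at 10% (0.0454) but not at 20% (0.586). Over all genes tested, 29.5% were called lower and 28.6% higher.

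**Figure D3:**
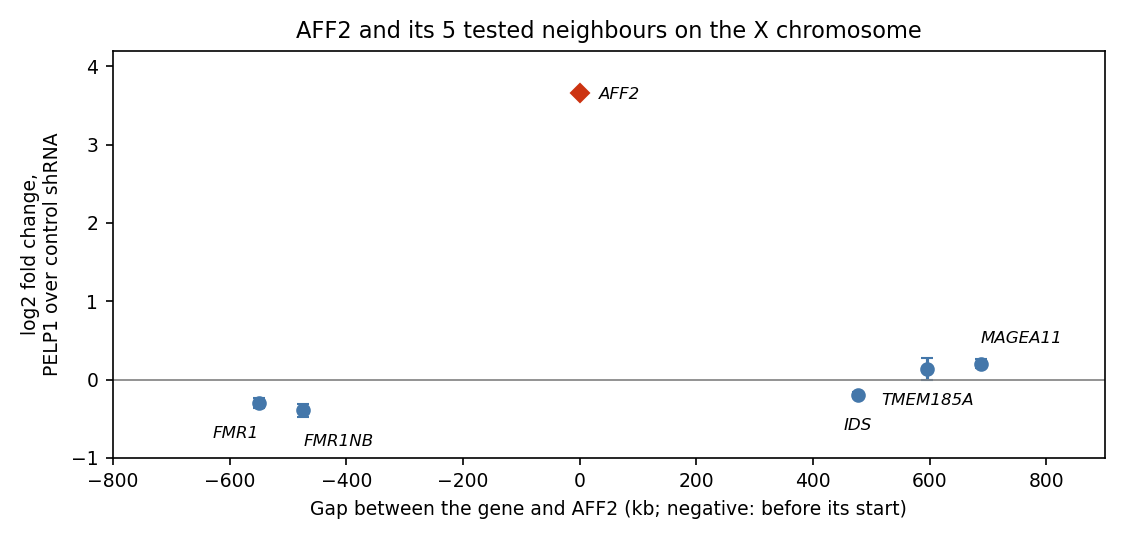
Log2 fold change, PELP1 shRNA over control shRNA, of AFF2 (red, shown without an error bar because it was chosen on this value) and of its 5 tested neighbours (blue, with SE), against the gap in kb between each gene and AFF2. The neighbours lie between −0.39 and 0.20, and AFF2 at 3.66.

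The genes whose levels over the 4 libraries were nearest to those of AFF2, by Euclidean distance of log2(CPM + 0.5), were GSTO2 (distance 0.58), MYEOV (0.77), SPSB4 (0.99), SULT1C2 (1.04) and MAT1A (1.11). Each was low with the control shRNA and higher with the PELP1 shRNA: SPSB4 had 38 and 39 counts, then 246 and 255, and SULT1C2 had 30 and 42, then 253 and 212. GSTO2, an omega-class glutathione transferase gene, had 23 and 24 counts, then 489 and 442. Likeness over 4 libraries in 2 groups describes the levels only.

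Other genes of transcription elongation were followed in 4 lists. Over all genes tested, 28.6% were called higher and 29.5% lower, and each count of calls below is to be read beside those shares. These counts were not run with an assumed biological variation. At 10%, the calls of HEXIM1 (adjusted p = 0.226), BRD3 (0.0852), CDK12 (0.143), NARG2 (0.204), MEN1 (0.185), POLR2C (0.0838) and MNAT1 (0.101) were lost. So were those of KIAA0947, PAF1, CTR9, WHSC2, COBRA1, RTF1, LEO1 and TH1L. Calls of USPL1, TCEA2, TCEA3, TCEB1, POLR2G, WDR61 and ELL3 held. At 20%, of these only TCEA3 (0.045) and ELL3 (0.00276) were called. Among 12 regulators of P-TEFb and the 7SK complex, 2 rose, 1 fell and 9 did not pass (median log2 fold change −0.01, against 0.0022 over all genes). With upper-quartile factors or with library size alone, 5 rose. HEXIM1, the inhibitor that holds P-TEFb in the 7SK complex, rose by 0.24 ± 0.05 (SE; edgeR, FDR = 7.59e-05), from 64.9 and 61.2 to 74.7 and 74.2 CPM. The bromodomain gene BRD3 rose by 0.32 ± 0.05 (SE; edgeR, FDR = 1.09e-08) and CDK12, another kinase of the polymerase tail, fell by 0.28 ± 0.05 (SE; edgeR, FDR = 2.89e-07). CCNT2, the other P-TEFb cyclin, did not pass and stood at −0.06 (edgeR, FDR = 0.461).

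Among 14 genes tied to ELL and to MLL fusions, 6 rose and 0 fell in the edgeR test, and 8 did not pass (median 0.18). Over all genes tested, 28.6% were called higher and 29.5% lower. Besides partners, the list holds ELL3, MLL itself and the YEATS genes YEATS2 and YEATS4. At an unadjusted p under 0.05, 1 was lower in edgeR, EAF1 (−0.13; edgeR, FDR = 0.0554), and DESeq2 called 0 lower. ZC3H8 (0.19; edgeR, FDR = 0.0568) and EAF2 (0.27; edgeR, FDR = 0.0704) missed the threshold as well. With library size alone 11 rose and with upper-quartile factors 10. USPL1, a SUMO protease found with the little elongation complex, rose by 0.52 ± 0.07 (SE; edgeR, FDR = 7.63e-09), from 25.1 and 23.4 to 33.8 and 35.5 CPM. NARG2 (ICE2), a subunit of that complex, rose by 0.25 ± 0.06 (SE; edgeR, FDR = 0.000138), and KIAA0947 (ICE1), named after its values were seen, by 0.16 (edgeR, FDR = 0.00178). MEN1, the menin gene, rose by 0.26 ± 0.05 (SE; edgeR, FDR = 4.60e-06). ELL3, the third ELL paralog, also named after its values were seen, had 6 counts in each control library and 26 and 29 in the PELP1 shRNA libraries (edgeR, FDR = 0.000135). The 3 ELL genes thus did not move together, with ELL and ELL2 lower and ELL3 higher from a trace. MLL itself stood at 0.06 (edgeR, FDR = 0.243; adjusted p = 0.0188 with upper-quartile factors) and DOT1L at −0.06 (edgeR, FDR = 0.334).

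Of 22 pausing and elongation factors, 8 rose, 7 fell and the remaining 7 did not pass (median −0.03), against 28.6% higher and 29.5% lower over all genes. Over the replicate block, DESeq2, the other scalings and filters and each library left out, 6 to 10 rose and 5 to 8 fell. TCEA2, a TFIIS gene, rose by 0.64 ± 0.08 (SE; edgeR, FDR = 1.37e-09), from 15.2 and 17.1 to 26.4 and 24.2 CPM, while its relative TCEA3 fell by 1.03 ± 0.24 (SE; edgeR, FDR = 0.000164), from 2.78 and 2.49 to 1.13 and 1.45 CPM. TCEA1, looked at later and higher in CPM than both, fell by 0.35 ± 0.06 (SE; edgeR, FDR = 3.07e-06), from 46.0 and 44.4 to 35.2 and 35.9 CPM. TCEB1 (elongin C) fell by 0.42 ± 0.06 (SE; edgeR, FDR = 2.80e-08), from 48.2 and 48.3 to 36.0 CPM in both libraries. Looked at after the values were seen, the PAF1 complex was split. PAF1 (0.30), CTR9 (0.33), WDR61 (0.39) and, marginally, LEO1 (0.09; edgeR, FDR = 0.0444) rose, RTF1 (−0.18) fell and CDC73 (−0.10; edgeR, FDR = 0.0925) did not pass. Of the NELF genes, WHSC2 (NELFA, 0.33) and TH1L (NELFCD, 0.11; edgeR, FDR = 0.0251) rose, COBRA1 (NELFB, −0.22) fell and RDBP (NELFE, 0.08; edgeR, FDR = 0.0597) did not pass. The calls of LEO1 and TH1L were lost in 7 of 13 alternatives each, among them the replicate block (adjusted p = 0.109 and 0.0701), DESeq2 (0.135 and 0.106) and the fits without control replicate 1 (0.138 and 0.0721), control replicate 2 (0.0654 and 0.0559) or PELP1 shRNA replicate 2 (0.379 and 0.285). RTF1 was not called with library size alone (adjusted p = 0.1). CDC73 stood at −0.15 without control replicate 2, and was called with a crossed pairing of replicates (0.0287). RDBP was called with upper-quartile factors (0.00204), with library size alone (7.5e-05) and with that crossed pairing (0.0117). It was also called without the low-count filter (0.0493) and with at least 5 CPM in 2 libraries (0.0219). The large DSIF subunit SUPT5H stood at −0.05 (edgeR, FDR = 0.267). The small one, SUPT4H1, looked at later, rose by 0.16 ± 0.05 (SE; edgeR, FDR = 0.00494).

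Subunits of RNA polymerase II and of the CDK7 kinase also went both ways. Of 15 genes, 5 rose, 6 fell and the remaining 4 did not pass (median 0.04), and with library size alone 8 rose. Over all genes tested, 28.6% were called higher and 29.5% lower. POLR2G rose by 0.39 ± 0.06 (SE; edgeR, FDR = 2.98e-08), POLR2C fell by 0.32 ± 0.04 (SE; edgeR, FDR = 6.48e-09) and MNAT1, the assembly factor of the CDK7 kinase, fell by 0.32 ± 0.06 (SE; edgeR, FDR = 2.21e-05). CDK7 itself, looked at later, rose by 0.29 ± 0.06 (SE; edgeR, FDR = 2.3e-05). Its cyclin CCNH, also looked at later, fell by 0.31 ± 0.06 (SE; edgeR, FDR = 2.02e-06). The catalytic subunit POLR2A stood at 0.06 (edgeR, FDR = 0.172) but passed without control replicate 2 (adjusted p = 0.0367) and with upper-quartile scaling (0.00566).

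**Figure D4:**
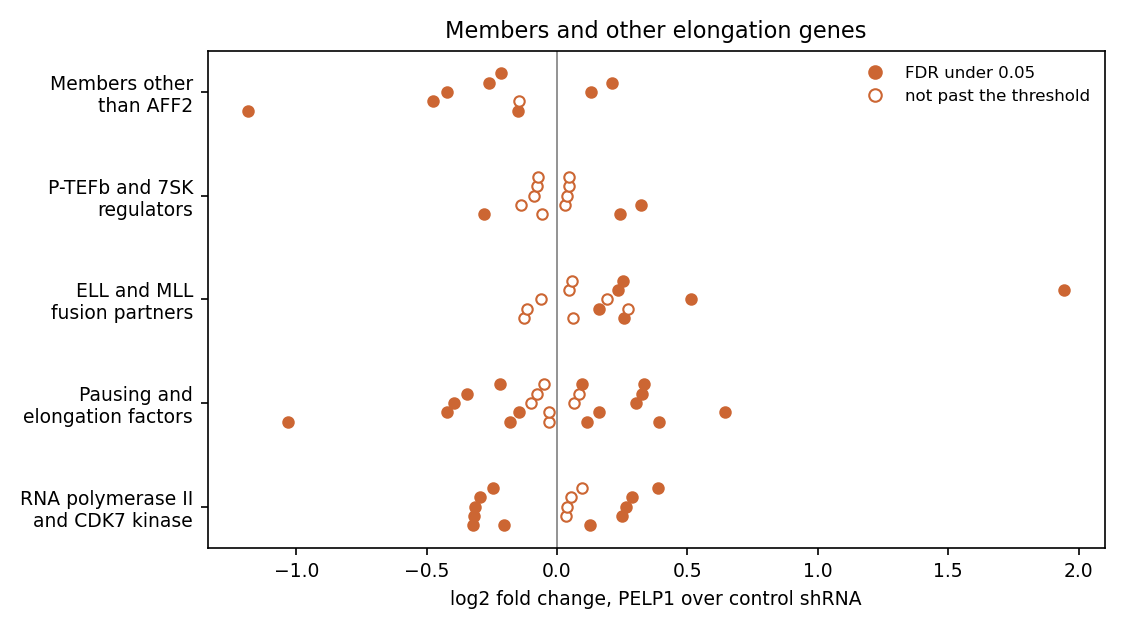
Log2 fold change, PELP1 shRNA over control shRNA, of the 9 genes other than AFF2 and of the 4 lists of other elongation genes; each point is 1 gene, filled where the edgeR FDR was under 0.05. ELL2, at −1.18, is the lowest point of all, and ELL3 at 1.94 the highest; most other points lie close to 0 on both sides.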

How the data were processed

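RNA from 4 libraries of Daoy cells was sequenced with single-end reads of 50 bp. The authors aligned reads to hg19 with TopHat2 2.0.8b and counted them with HTSeq, per the submitters' processing notes, and deposited raw counts per gene symbol. Version, strand setting and gene models of the HTSeq step were not given in the sources used here, so antisense reads cannot be told apart from those of the gene. Rows that name no gene (38.8% to 40.5% of each file's total, most of it alignments that were not unique) were left out.

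The counts were fitted over all genes with edgeR 4.0.16 (R 4.3.3; quasi-likelihood F test, robust dispersions, TMM scaling, filterByExpr, shRNA group as the only term, two-sided, Benjamini-Hochberg FDR threshold 0.05), after testing on simulated data. Levels are TMM-scaled CPM. Lengths, coordinates and neighbours came from GENCODE on GRCh37 (hg19), and a length is that of all annotated exons, which may differ from what was counted. Older symbols were matched where needed. Replicates differed by more than counting noise (chi-square per degree of freedom 2.469 and 2.374). DESeq2 1.42.0, other scalings and filters, assumed biological variation, a replicate block and leaving out each library were run as alternatives.

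The members and lists were chosen with earlier results of these data known. Besides the 10 members, PELP1 and the neighbours, the text names from each list the 3 genes past the threshold with the largest change and a mean of at least 1 CPM, and the 5 genes nearest to AFF2; others are given for their role or said to have been chosen later.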

Additional observations from a re-analysis of the deposited data

How the results depend on the processing

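In 570 fits of single genes under the alternatives, 4 reversed direction, none of them a call: CCNT2 (0.0332), DOT1L (0.0290) and SUPT5H (0.0416) with library size alone, and SUPT5H (0.0047) with upper-quartile factors. PELP1 stayed between −1.83 and −1.66 on the log2 scale. Over all genes, 4276 rose and 4424 fell; with an assumed biological variation of 10% these were 2187 and 2176, and with 20% they were 685 and 640. Of the 9 members other than AFF2, 2 rose and 6 fell; 0 rose and 3 fell at 10%, 0 rose and 1 fell at 20%, and 1 rose with DESeq2. With 1 library left out, 0 to 2 rose and 4 to 6 fell. The regulators of P-TEFb with a rise went from 2 to 5 with upper-quartile factors and to 5 with library size alone. In the list of genes tied to ELL and MLL fusions, rises went from 6 to 10 and 11. The polymerase subunits with a rise went from 5 to 8 with library size alone. Of the pausing and elongation factors, 8 rose, against 6 with the replicate block and with DESeq2, and 10 with either of those scalings. With 1 library left out, 1 to 2 regulators of P-TEFb fell. Library size alone moved the median of all genes from 0.0022 to 0.0922. The AFF2 share was 0.207% and 3.04% with the longest transcript, against 0.242% and 3.52%, and from 0.223% to 0.26% and from 3.31% to 3.74% with 1 library left out.

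The labels give both groups replicates 1 and 2 without saying that a number marks a shared batch, and deviations of same-numbered libraries correlated at −0.113. A single gene can still follow the number. GFAP had 869 and 840 counts in the first replicates and 304 and 286 in the second, and why was not tested. With the replicate block, 4010 genes rose and 4151 fell, and of 44 named genes run with it 3 changed their call, AFF1 (adjusted p = 0.0682), LEO1 (0.109) and TH1L (0.0701). TCEA1, CDK7, CCNH, SUPT4H1, EAF1, EAF2 and ZC3H8 were not followed singly under the alternatives. A crossed pairing, added after seeing the data, called 4565 higher and 4719 lower. With it, 4 regulators of P-TEFb and 1 gene of the list tied to ELL and MLL fusions were lower.

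With 21 and 26 control counts, counting error alone leaves the AFF2 ratio between 9.46 and 17.5.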
